A study of Mus musculus with 3 samples.

Results

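Conventional CD4 T cells made up 167 of the 8139 cells kept from B16F10 melanomas. The name here means helper-lineage T cells without a detected transcript of the regulatory factor Foxp3. They were chosen by their own transcript counts. A member had at least 1500 unique molecular identifiers (UMIs, each standing for 1 captured RNA molecule), under 10% mitochondrial UMIs, at least 1 UMI of the CD3 genes Cd3d, Cd3e and Cd3g summed, and at least 1 of Cd4. It had 0 UMIs of Foxp3, of the CD8 genes Cd8a and Cd8b1, of the macrophage receptor gene Csf1r and of the plasmacytoid dendritic cell gene Siglech. There were 20 members in the day 3 library, 53 in the day 7 library and 94 in the day 14 library. The levels of these gate genes are fixed by the choice and are described without a test.

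The study followed leukocytes in tumours after adoptive T cell transfer. C57BL/6 mice carried B16F10, a mouse melanoma line, under the skin, and all of them received activated Pmel-1 cytotoxic T cells intravenously at day 9 after inoculation. Pmel-1 is a transgenic CD8 receptor specific for the melanoma antigen gp100. CD45+ cells were taken at days 3, 7 and 14 after the transfer and profiled by droplet sequencing of RNA 3′ ends. Each day is 1 library that pools equal numbers of cells from 3 mice, so the days have no replicate, and mice without a transfer were not analysed here. The labels name both a cell sorter and magnetic beads for the CD45 step. The comparison class was CD8 T cells, with at least 2 UMIs of Cd8a and Cd8b1 summed, at least 1 CD3 UMI, and 0 UMIs of Cd4, Foxp3, Csf1r and Siglech. It held 333, 463 and 371 cells at days 3, 7 and 14, and donor and host CD8 T cells are not separated in it.

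CD4 T cells read peptides on MHC class II through the T cell receptor and the Cd4 coreceptor. They act mostly on other cells, through surface signals such as CD40 ligand and through cytokines that define helper types, among them interferon-γ for type 1 (Th1), interleukin-4, interleukin-5 and interleukin-13 for type 2 (Th2) and interleukin-17 for type 17 (Th17). CD8 T cells read MHC class I and kill through perforin and granzymes.

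The files held 10243 barcodes, 3038 to 3656 per library, and 2577 to 2843 per library passed the UMI and mitochondrial limits. Between 15.3% and 18.2% of a library's barcodes also occurred in another library. Such shared barcodes held 0, 1 and 1 members at days 3, 7 and 14, against 47, 70 and 31 CD8 T cells. Members were shallow, with median totals of 4195, 5693 and 4450 UMIs, against 12985, 12668 and 10498 UMIs in CD8 T cells. The summed counts behind each value below were 85810, 338095 and 527236 UMIs in CD4 T cells and 6172573, 7838162 and 6098435 UMIs in CD8 T cells. Levels are given as counts per 1000000 UMIs of these sums (CPM).

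The gate rests on few molecules. Cd4 stood at 303, 322 and 321 CPM in the members, and 16, 22 and 50 of them at days 3, 7 and 14 had a single Cd4 UMI. With at least 2 Cd4 UMIs required, 4 members were left at day 3. Just outside the rule, 161, 247 and 241 cells met every condition except for lacking a Cd4 UMI, 14, 27 and 38 failed by Foxp3 alone, and 7, 20 and 13 failed by CD8 alone. A Cd4 UMI was seen in 3.09%, 3.69% and 2.96% of CD3-positive cells with at least 2 CD8 UMIs, whose median depths were 17173, 13536 and 11727 UMIs. It was seen in no more than 0.601% of B cells, neutrophils, NK cells and Csf1r-positive cells of any library.

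Markers of other cell types were counted in the members list by list, and their part in the results was not tested. The B cell genes Cd79a and Ms4a1, the macrophage genes C1qc and Adgre1, the neutrophil genes S100a8 and Csf3r and the NKT factor Zbtb16 had 0 UMIs in all 3 sums. Other defining genes had UMIs on some days, among them Xcr1, Itgax, C1qa and Ncr1 on day 14. The 16 monocyte and macrophage markers summed to 548, 343 and 432 CPM in CD4 T cells, against 843, 912 and 744 CPM in CD8 T cells. The 10 NK markers summed to 186, 62.1 and 96.7 CPM in CD4 T cells, against 915, 374 and 224 CPM in CD8 T cells. Some lists stood above their CD8 level. The 8 neutrophil markers summed to 46.6, 124 and 26.6 CPM, against 32.4, 64.4 and 16.7 CPM in CD8 T cells. Of 3 tested, Hdc was higher and S100a9 lower. The 8 invariant NKT markers summed to 350, 305 and 281 CPM, against 209, 224 and 228 CPM in CD8 T cells. Of 4 tested, Slamf1 was higher and 0 lower. The 12 innate lymphoid markers summed to 921, 1393 and 1019 CPM in CD4 T cells, against 538, 561 and 406 CPM in CD8 T cells, and the 4 of 7 tested that were higher, Il1rl1, Gata3, Tmem176a and Tmem176b, are also on the helper lists below. The 10 γδ T cell markers, a list that holds Il17a, summed to 69.9, 710 and 186 CPM in CD4 T cells, against 45.4, 81.9 and 60.2 CPM in CD8 T cells. The 11 dendritic cell markers summed to 128, 127 and 548 CPM in CD4 T cells, against 342, 289 and 438 CPM in CD8 T cells, and at day 14 a single member held 224 of their 289 UMIs. At day 14, 1 member also held 507 of the 634 UMIs of MHC class II genes.

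The share of conventional CD4 T cells was higher at each later day. At day 3 they were 0.736% of kept cells (exact 95% interval 0.450 to 1.13). At day 7 they were 2.06% (1.54 to 2.68) and at day 14 3.31% (2.68 to 4.03). The share at day 14 was 4.50-fold that at day 3 (2.75 to 7.69), and that at day 7 was 2.80-fold (1.64 to 4.94). On the log2 scale these ratios were 2.17 and 1.48, and with at least 2 Cd4 UMIs required, which leaves 4 members at day 3, they were 3.40 and 3.03. With 1 library per day there is no test, and all intervals here and below cover counting error only. A share does not give the number of cells per tumour. The shares also leave out the 20, 7 and 5 barcodes that failed only the limit on total UMIs. These compare with 20, 53 and 94 members at days 3, 7 and 14, so the day 3 share depends most on that limit. The effect of a lower limit on the ratios was not tested.

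The CD8 share did not follow the same course. CD8 T cells were 12.2%, 18.0% and 13.0% of kept cells at days 3, 7 and 14, and the number of CD4 T cells per CD8 T cell was 0.0601, 0.114 and 0.253. This ratio was 4.22-fold higher at day 14 than at day 3 (2.58 to 7.22), or 2.08 on the log2 scale, which became 3.304 with at least 2 Cd4 UMIs. Foxp3-positive T cells, gated by Foxp3 UMIs and otherwise alike but without a Cd4 condition, were 0.956%, 1.32% and 2.22% of kept cells. Their day 14 share was 2.32-fold that at day 3 (1.45 to 3.81).

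**Figure D1:**
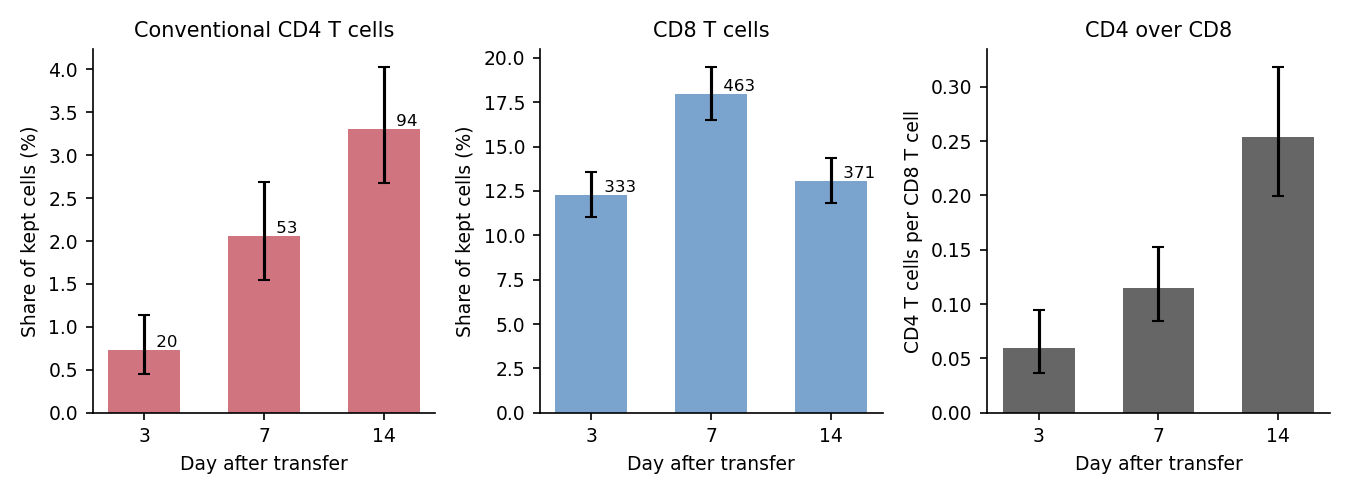
Share of kept cells (percent) that were conventional CD4 T cells (left) and CD8 T cells (middle), with cell numbers beside the bars, and CD4 T cells per CD8 T cell (right), at days 3, 7 and 14. Error bars are exact 95% intervals for counting error, and the CD4 share stands at 0.736%, 2.06% and 3.31% while the CD8 share is highest at day 7.

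The 4 genes besides Cd4 that came with the name of this cell type were all more abundant in CD4 than in CD8 T cells in every library. They were picked with earlier results of these data known, so their values are a description and not an independent check. Cd40lg, encoding CD40 ligand, stood at 81.6, 228 and 125.2 CPM in CD4 T cells at days 3, 7 and 14, against 0.972, 3.70 and 1.15 CPM in CD8 T cells. Icos, an inducible costimulatory receptor, stood at 757, 739 and 505 CPM in CD4 T cells, against 83.8, 162 and 69.5 CPM in CD8 T cells. The 2 classes did not overlap for either gene. How many of all tested genes show no overlap was not counted, so here and below this is a description. Rora, a nuclear receptor of helper and innate lymphocytes, stood at 536, 559 and 391 CPM in CD4 T cells, against 72.3, 50.01 and 39.9 CPM in CD8 T cells. Bcl11b, a factor that fixes T cell identity, stood at 373, 248 and 285 CPM in CD4 T cells, against 93.0, 108 and 100 CPM in CD8 T cells. On GRCm38 (mm10), Cd40lg lies at chrX:57212143-57224042, Icos at chr1:60977927-61000320, Rora at chr9:68653786-69388246 and Bcl11b at chr12:107910403-108003602. The log2 fold changes of CD4 over CD8 were 6.03 ± 0.34 for Cd40lg, 2.50 ± 0.19 for Icos, 3.05 ± 0.20 for Rora and 1.32 ± 0.20 for Bcl11b (SE, n = 3 libraries).

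Over all genes, the 3 CD4 sums were set against the 3 CD8 sums with library as a block, by edgeR's quasi-likelihood test with Benjamini-Hochberg adjustment over 9489 genes. At an adjusted p under 0.05, 675 genes were higher in CD4 T cells and 1289 were lower, which is 7.11% and 13.6% of the genes tested. These shares are the background for every list count between the classes below. DESeq2 called 459 higher and 413 lower, so the split between the directions depends on the tool. Leaving out the day 7 library gave 265 higher and 423 lower, and leaving out the day 14 library gave 285 higher and 378 lower. The median log2 fold change of all genes was -0.16 with TMM scaling and -0.09 with relative log expression factors. edgeR found no spread particular to single genes beyond the shared trend, so the p-values rest on a spread pooled over genes, and the 3 libraries are also the 3 days.

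Among genes that met the naming rule, the largest differences towards CD4 T cells joined CD40 ligand with adaptor, chemotactic and cytokine genes. The rule leaves out markers of other cell types and genes with few UMIs or cells. Genes outside it included Il17a (log2 fold change 8.12), Pparg (6.44), Tnfrsf25 (5.71), Tmem176b (4.50) and Tmem176a (4.35). Behind Cd40lg came Krt83, a hair keratin (58.3, 106 and 53.1 CPM in CD4 T cells, against 0.972, 3.32 and 1.31 CPM in CD8 T cells), and Trat1, an adaptor of the T cell receptor (58.3, 91.7 and 68.3 CPM, against 1.94, 2.55 and 1.80 CPM in CD8 T cells). Ltb4r1, the leukotriene B4 receptor, followed with 81.6, 177 and 89.1 CPM in CD4 T cells, against 5.99, 4.98 and 2.79 CPM in CD8 T cells. The other 6 of the 10 were Ramp3, which partners calcitonin-type receptors, Tmem64, the transcription factor Maf, the epithelial growth factor Areg, the interferon-induced Ifit1 and the protease Furin. Their log2 fold changes were 4.21 ± 0.25 for Ramp3, 3.98 ± 0.31 for Tmem64, 3.67 ± 0.24 for Maf, 3.43 ± 0.27 for Areg, 3.23 ± 0.36 for Ifit1 and 3.22 ± 0.22 for Furin (SE, n = 3 libraries). All 10 were also called by DESeq2. The Areg counts came from 2, 10 and 13 members and the Ifit1 counts from 3, 8 and 7 members. At day 3, 1 member held 16 of the 18 Areg UMIs. Areg stood at 210, 183 and 77.8 CPM in CD4 T cells, below the 233, 782 and 343 CPM of Foxp3-positive T cells.

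Under the same rule, the 10 genes with the largest fitted differences in the other direction had 0 UMIs in every member. Their values are therefore lower bounds and not a ranking against genes that were counted. Prf1, encoding the pore protein perforin (chr10:61297833-61304680), stood at 550, 247 and 142 CPM in CD8 T cells at days 3, 7 and 14. Against a floor of 3 counts over the CD4 sums, Prf1 was at least 97.8-fold lower in CD4 T cells. On the same floor the bounds were at least 28.4-fold lower for the granzyme gene Gzmf, 14.1-fold for the protease inhibitor gene Serpine2, 11.8-fold for Gzme, 8.80-fold for Bend4 and 7.63-fold for the kinase gene Dapk2. They were at least 6.35-fold lower for Filip1, 6.12-fold for Itih5, 4.04-fold for Nt5dc2 and 3.94-fold for Alox5ap, which feeds 5-lipoxygenase. The CD8 counts of Gzmf came from 24, 26 and 5 cells and those of Gzme from 13, 10 and 3 cells. UMIs of 1 cell are not independent, and the floor does not allow for this, so the Gzmf and Gzme bounds are weak. DESeq2 called 8 of the 10 and gave no adjusted p for Alox5ap and Nt5dc2, both of which also lost their call without the day 14 library. Alox5ap lost it as well without the cells of both classes that were rich in MHC class II transcripts, and Gzme without the block. Of the 1289 genes that were lower, 58 had 0 UMIs in all 3 CD4 sums.

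**Figure D2:**
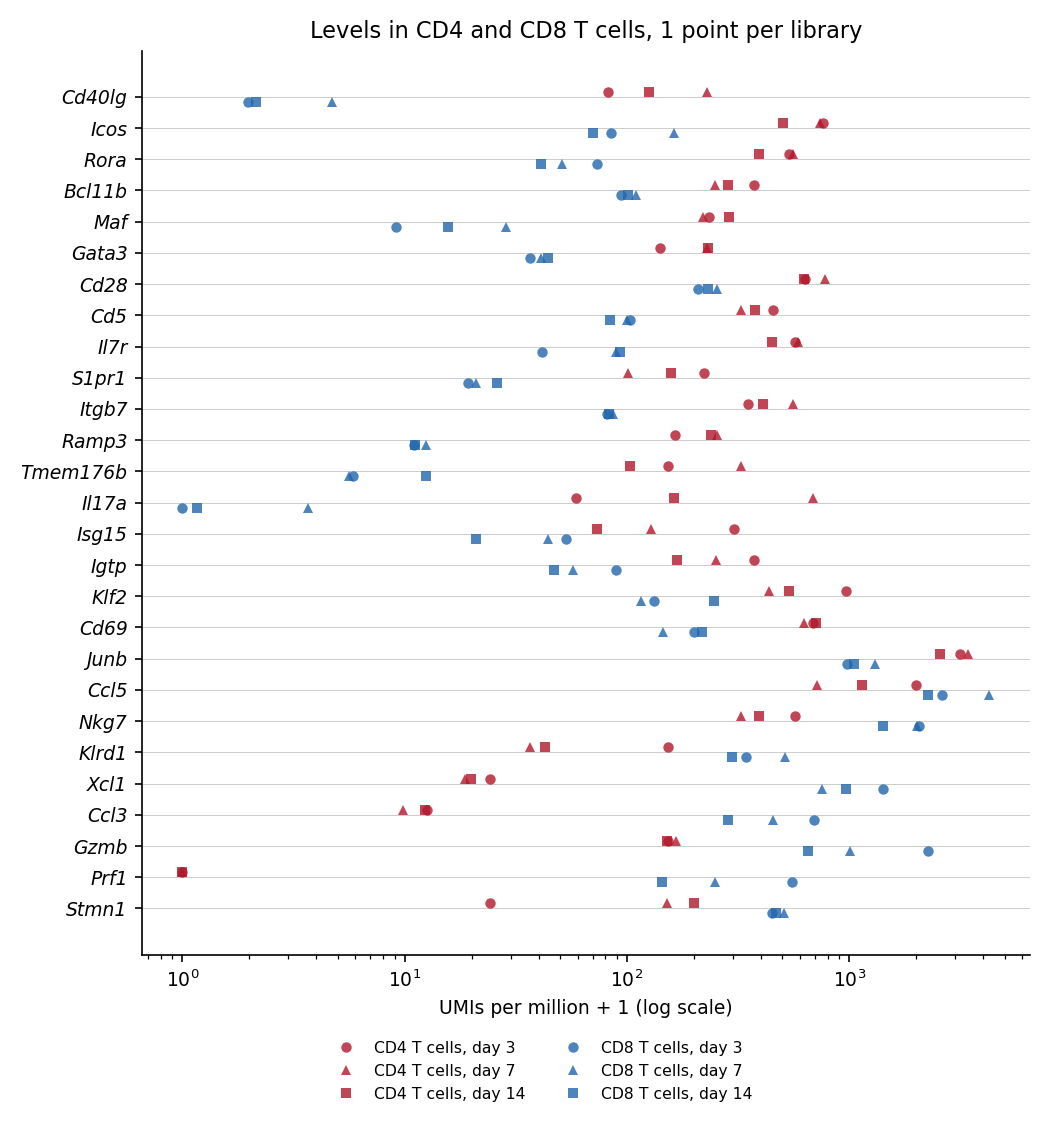
Level of 27 genes (CPM of the summed cells with 1 added, log axis) in conventional CD4 T cells (red, upper points of a row) and CD8 T cells (blue, lower points), with 1 symbol for each day. Cd40lg, Icos, Rora and Bcl11b lie further right in CD4 T cells on every day, and Prf1 is at 0 in CD4 T cells.

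The list of helper signals, which holds both ligands and receptors of helper cells, leaned towards CD4 T cells. Of 16 genes on this list, all tested, 9 were higher and 1 was lower, with a median log2 fold change of 0.96, beside -0.16 over all genes tested. Tnfsf8, encoding CD30 ligand, stood at 221, 249 and 372 CPM in CD4 T cells, against 16.5, 35.3 and 43.0 CPM in CD8 T cells (log2 fold change 2.92 ± 0.23, SE, n = 3 libraries). Tnfsf11, encoding RANK ligand, stood at 210, 109 and 43.6 CPM in CD4 T cells, against 7.78, 18.9 and 24.1 CPM in CD8 T cells. Tnfrsf25, the death receptor for TL1A, had 58.3, 76.9 and 32.2 CPM in CD4 T cells, against 1.30, 0.510 and 0.984 CPM in CD8 T cells. The other higher genes were Ltb, Cd28, Slamf1, Tnfrsf4, Cd40lg and Icos. Cd40lg and Icos are among the genes above that came with the name of this cell type, so their part in the count is not independent. The Tnfrsf4 call was lost under DESeq2, without the block, at 2 or more Cd4 UMIs, without the day 7 library and without the day 14 library. The Ltb call was lost at 2 or more Cd4 UMIs. Cd27, a costimulatory receptor, was lower, at 186, 112 and 81.6 CPM in CD4 T cells against 188, 263 and 220 CPM in CD8 T cells, and its call was lost without the day 7 or the day 14 library.

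Genes of the T cell receptor, its signalling and its accessory receptors leaned towards CD4 T cells. Cd3d, Cd3e and Cd3g were gate genes in both classes. Of 14 further genes on this list, 8 were higher, 1 was lower and the median log2 fold change was 0.54, beside -0.16 over all genes. Cd5, a brake on receptor signalling, stood at 455, 325 and 377 CPM in CD4 T cells, against 102, 99.1 and 82.8 CPM in CD8 T cells (1.81 ± 0.20). Cd28, the main costimulatory receptor, stood at 629, 778 and 622 CPM in CD4 T cells, against 209, 254 and 231 CPM in CD8 T cells (1.34 ± 0.18). Cd6, a relative of Cd5, was also higher (1.18 ± 0.20). The groups did not overlap for Cd5, Cd28 or Cd6, again without a count over all genes. The other higher genes were the receptor chain Cd247, the kinase Lck, the adaptor Lat, the adhesion receptor Cd2 and Bcl11b, which is one of the 4 genes above. The gene that was lower was Trbc2, a constant region of the T cell receptor β chain, whose levels are described by cell below. Trac and Trbc1 did not pass the test, with log2 fold changes of 0.37 ± 0.16 and -0.26 ± 0.15. The Trac difference passed the test under 5 alternatives, among them relative log expression factors and leaving out the day 3 library. The Trbc1 difference passed it without the members with Trbv14 or high Trbc2. Here and below, that setting leaves out members with a Trbv14 UMI or at least 50 Trbc2 UMIs.

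Cytotoxic genes were mostly lower in CD4 T cells. Of 18 killing genes tested, 14 were lower in CD4 T cells and 1 was higher, with a median log2 fold change of -2.70 (also -2.70 with the genes at 0 set to their bounds), beside -0.16 over all genes. Gzmb, encoding granzyme B, stood at 151, 166 and 150 CPM in CD4 T cells, against 2259, 1005 and 654 CPM in CD8 T cells (-2.89 ± 0.18). It was seen in 6, 7 and 12 members, with 44 of the 56 UMIs of day 7 in 1 member and 58 of the 79 UMIs of day 14 in 2 members. Nkg7, a granule protein gene, stood at 571, 325 and 393 CPM in CD4 T cells, against 2066, 2018 and 1424 CPM in CD8 T cells (-2.33 ± 0.16). Gzmc had 0, 2 and 1 UMIs in CD4 T cells, and Gzmd, Gzme, Gzmf, Gzmg and Prf1 had 0. Srgn, the granule proteoglycan, was the gene that was higher (0.85 ± 0.15), a call lost at 2 or more Cd4 UMIs. The list kept 12 lower genes under DESeq2 and 9 of 12 tested after every cell was thinned to 1500 UMIs.

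Chemokines of activated T cells showed the same direction. Of 8 tested, 5 were lower in CD4 T cells, namely Ccl1, Ccl3, Ccl4, Ccl5 and Xcl1, and the median log2 fold change was -3.26. Xcl1, which attracts cross-presenting dendritic cells, stood at 23.3, 17.7 and 19.0 CPM in CD4 T cells, against 1412, 753 and 966 CPM in CD8 T cells (-5.82 ± 0.26). Ccl3 and Ccl4, which attract other leukocytes, had log2 fold changes of -5.38 ± 0.32 and -4.99 ± 0.26. Ccl5 stood at 2004, 713 and 1138 CPM in CD4 T cells, against 2601, 4270 and 2264 CPM in CD8 T cells. Cxcl10, a ligand of Cxcr3, was higher, at 315, 104 and 43.6 CPM in CD4 T cells against 97.9, 25.1 and 14.9 CPM in CD8 T cells, a call lost without the block and with a looser CD8 gate.

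Regulators of T cell lineage divided between the classes. Of 15 tested, 6 were higher and 4 were lower, with a median log2 fold change of -0.02. Gata3 stood at 140, 228 and 230 CPM in CD4 T cells, against 35.6, 40.2 and 43.3 CPM in CD8 T cells (2.17 ± 0.23). Runx1 was higher (1.93 ± 0.27), as were Maf, Rora and Bcl11b, of which Rora and Bcl11b came with the name of this cell type. Zbtb7b, encoding ThPOK, the factor that commits thymocytes to the CD4 lineage, was seen in 0, 9 and 8 members, with 0, 29.6 and 17.1 CPM in CD4 T cells against 4.37, 5.10 and 2.62 CPM in CD8 T cells (2.14 ± 0.58). Its call was lost without the day 7 library, without the day 14 library and without the members with Trbv14 or high Trbc2.

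The 4 lower regulators were Eomes, Myb, Tox and Ikzf2. Eomes, a T-box factor of effector CD8 T cells, had 1, 0 and 0 UMIs in CD4 T cells, against 43.1, 35.3 and 33.8 CPM in CD8 T cells. Tox, which is linked to exhaustion, stood at 93.2, 41.4 and 45.5 CPM in CD4 T cells, against 114, 139 and 123 CPM in CD8 T cells, and its call was lost without the day 7 library. The Ikzf2 call was lost there too, and without the members with Trbv14 or high Trbc2. Runx3, which silences Cd4 in CD8 T cells, did not pass the test (-0.49 ± 0.21), though it did without cells above 20000 UMIs.

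**Figure D3:**
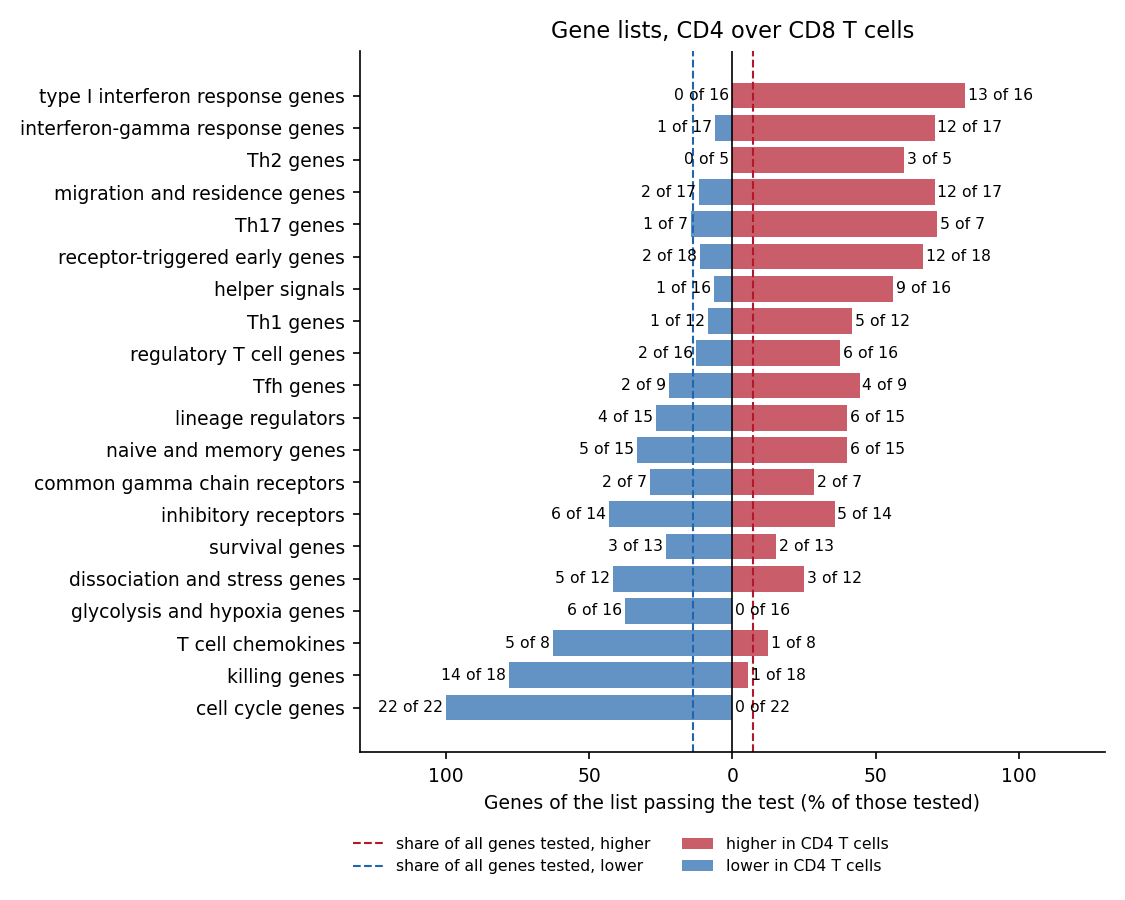
Percent of the tested genes of each list that were higher (red, right) or lower (blue, left) in CD4 than in CD8 T cells at an adjusted p under 0.05, with the numbers at the bars. Dashed lines mark the shares over all genes tested, 7.11% higher and 13.6% lower, and the cell cycle, killing and chemokine lists reach furthest to the left.

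Helper type genes were tested list by list. Of 12 Th1 genes, 5 were higher and 1 was lower, with a median of 0.25. Among the higher genes were Cxcr3, the receptor for Cxcl10 (1.60 ± 0.22), Bhlhe40, Il12rb1 and Il18r1. Cxcr3 stood at 198, 210 and 203 CPM in CD4 T cells, against 45.2, 70.3 and 56.1 CPM in CD8 T cells. The calls of Bhlhe40, Il12rb1 and Il18r1 were lost without the day 7 library and without the day 14 library. Tbx21, the Th1 master factor T-bet, did not pass the test, at 11.7, 56.2 and 41.7 CPM in CD4 T cells against 47.1, 56.4 and 45.1 CPM in CD8 T cells.

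Ifng, encoding interferon-γ (chr10:118441046-118445892), was the lower Th1 gene. It stood at 280, 59.2 and 89.1 CPM in CD4 T cells, against 959, 279 and 347 CPM in CD8 T cells (-2.19 ± 0.21). An Ifng UMI was seen in 6 of 20, 6 of 53 and 23 of 94 members, against 201 of 333, 255 of 463 and 189 of 371 CD8 T cells. Thinned to 1500 UMIs, 20%, 7.55% and 12.8% of CD4 T cells held one, against 24.9%, 19.9% and 18.1% of CD8 T cells.

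Of 12 Th17 genes, 7 could be tested, and 5 were higher and 1 was lower, with a median log2 fold change of 3.58. The higher genes were Rora, Il17a, the chemokine receptor Ccr6, and Tmem176a and Tmem176b, a pair of ion channel genes linked to cells of type 17. Rora also came with the name of this cell type. Tmem176b stood at 152, 325 and 102 CPM in CD4 T cells, against 4.86, 4.59 and 11.5 CPM in CD8 T cells (4.50 ± 0.28). Stat3, which relays Il6 and Il23 signals, was the lower one (-0.96 ± 0.20), a call lost after thinning and without the day 7 library.

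Il17a, encoding interleukin-17A (chr1:20730905-20734496), was higher in CD4 than in CD8 T cells and came from few cells. There were 5, 232 and 85 UMIs in CD4 T cells at days 3, 7 and 14, or 58.3, 686 and 161 CPM, against 0, 21 and 1 UMIs in CD8 T cells (8.12 ± 0.34, adjusted p = 7.71e-118 by edgeR). This p rests on a spread pooled over genes and does not measure the spread of Il17a between cells. Members with an Il17a UMI were 1 of 20 at day 3, 15 of 53 at day 7 (28.3%, 16.8 to 42.3) and 3 of 94 at day 14 (3.19%, 0.663 to 9.04). At day 14, 1 member held 59 of the 85 UMIs. CD8 T cells with a UMI were 0 of 333, 7 of 463 and 1 of 371, and no Foxp3-positive T cell had one.

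The Il17a-positive members stood apart from the other members in further genes at day 7. This split was made after the values were seen and is a description. The 15 positive members had 843.5 CPM of Rora, 767 of Tmem176b, 164 of Ccr6, 383 of Cd40lg and 1128 of Icos, against 454, 162, 0, 170 and 596 CPM in the 38 negative members. The γδ T cell genes Trdc and Tcrg-C1, whose cells can also make interleukin-17, had 0 and 1 UMIs in those 15 members. Il17a and Ifng were not seen together in any member, with 1, 15 and 3 members holding Il17a alone and 6, 6 and 23 holding Ifng alone.

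Th2 and follicular genes were sparse. Of 12 Th2 genes, 5 could be tested and 3 were higher, namely Gata3, Il1rl1, which encodes the interleukin-33 receptor (34.96, 56.2 and 20.9 CPM in CD4 T cells, against 1.46, 1.91 and 2.95 CPM in CD8 T cells), and Pparg. Il4 had 0, 2 and 2 UMIs in CD4 T cells, Il5 had 0, 4 and 5, Il13 had 0, 5 and 4, and Il9 had 0, so the cytokine genes of this type were near the limit that 3 counts set. Of 14 follicular helper genes, 9 could be tested, and 4 were higher (Maf, Izumo1r, Il6ra and P2rx7) and 2 were lower (Pdcd1 and Cd200). Il21 had 0, 0 and 2 UMIs, and Cxcr5 0, 1 and 1. The calls of Izumo1r, Il6ra, P2rx7 and Cd200 were lost without the day 14 library, and those of Il6ra, P2rx7 and Cd200 also without the day 7 library.

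Naive and memory genes went both ways. Of 15 tested, 6 were higher and 5 were lower, with a median of -0.02. Il7r, the interleukin-7 receptor that supports survival, stood at 571, 589 and 449 CPM in CD4 T cells, against 40.7, 88.4 and 92.5 CPM in CD8 T cells (2.64 ± 0.20). S1pr1, the receptor for exit from tissue into lymph (2.55 ± 0.25), and its activator Klf2 (1.71 ± 0.18) were also higher, as was Klf3 (1.99 ± 0.28). The lymph node homing receptor gene Ccr7 was lower, at 81.6, 47.3 and 83.4 CPM in CD4 T cells against 129, 208.5 and 256 CPM in CD8 T cells (-1.85 ± 0.25).

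The other higher genes on this list were Tcf7 and Igfbp4, and Id3, Dapl1 and Cd27 were among the other lower ones. Tcf7, the factor of stem-like T cells, stood at 326, 189 and 165 CPM in CD4 T cells, against 53.3, 92.7 and 145 CPM in CD8 T cells (0.85 ± 0.22). Its call was lost under 6 alternatives, among them DESeq2, no block and leaving out the day 7 library. Igfbp4 had 32, 0 and 14 UMIs in CD4 T cells. Its call was lost under DESeq2 and without the day 3 library, and with at least 2 Cd4 UMIs its log2 fold change turned to -7.53. Id3, with 0, 0 and 8 UMIs, lost its call without the day 7 library.

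Receptors for movement and tissue retention were mostly higher in CD4 T cells. Of 17 tested, 12 were higher and 2 were lower, Ccr7 among them, with a median log2 fold change of 1.23. Itgb7, an integrin chain for gut and epithelial homing, stood at 350, 556 and 408 CPM in CD4 T cells, against 80.0, 85.7 and 81.7 CPM in CD8 T cells (2.22 ± 0.20). Ccr2, the receptor for Ccl2, stood at 152, 287 and 220 CPM in CD4 T cells, against 61.9, 84.6 and 29.5 CPM in CD8 T cells (1.91 ± 0.22). Gpr183, an oxysterol receptor, Itgb1 and Cxcr4 were also higher, by 1.85 ± 0.21, 1.36 ± 0.19 and 1.52 ± 0.24 on the log2 scale. No CD4 library overlapped a CD8 library in the level of Itgb7, Ccr2, Gpr183, Itgb1 or Cxcr4, which was not counted over all genes. The list held 8 higher genes without the day 7 library and 8 without the day 14 library.

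Early genes of receptor triggering were mostly higher. Of 18 tested, 12 were higher and 2, Nr4a2 and Myc, were lower, with a median of 0.88. Cd69, an early activation and retention antigen, stood at 688, 627 and 706 CPM in CD4 T cells, against 198, 144 and 217 CPM in CD8 T cells (1.67 ± 0.18). Egr1, Fos and Nr4a1 were also higher, by 1.81 ± 0.23, 1.53 ± 0.20 and 1.27 ± 0.21. Nr4a2 stood at 93.2, 186 and 51.2 CPM in CD4 T cells, against 266, 409 and 319 CPM in CD8 T cells. Only 4 of the 18 were higher when members needed at least 2 Cd4 UMIs, Junb and Nfkbia being among the calls lost, and 8 without the day 7 library. The Myc call was lost under DESeq2 and without the day 7 or the day 14 library. Dissociation can also induce Fos, Jun and Egr1, and the heat shock genes listed with them went both ways, with Hspa1a, Hspa1b and Atf3 higher and Hspa8, Hsp90aa1, Hsp90ab1, Hspe1 and Hspd1 lower. The Atf3 call was lost without the day 7 library, the Hspa1b call without the day 7 or the day 14 library and the Hspa1a call without the day 14 library. At day 14 Hspa1a had 150 UMIs in 6 members, and without that library its log2 fold change was -1.39 and that of Hspa1b -0.53. The part of dissociation in these values was not tested.

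Inhibitory receptors did not move as a group. Of 14 tested, 5 were higher and 6 were lower in CD4 T cells, with a median of -0.63. Nt5e, encoding the adenosine-producing CD73, stood at 93.2, 79.9 and 62.6 CPM in CD4 T cells, against 10.5, 14.3 and 12.5 CPM in CD8 T cells (2.34 ± 0.32). Cd5, Ctla4, Lilrb4a and Cd200r1 were the other higher genes. Ctla4 stood at 408, 654 and 408 CPM in CD4 T cells, against 273, 298 and 185 CPM in CD8 T cells (0.80 ± 0.18), and the calls of Ctla4, Lilrb4a and Cd200r1 were lost without the day 7 or the day 14 library.

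The 6 lower genes of this list were Pdcd1, Lag3, Havcr2, Cd160, Cd244a and Entpd1. Pdcd1, encoding PD-1, stood at 81.6, 68.0 and 87.3 CPM in CD4 T cells, against 183, 185 and 166 CPM in CD8 T cells (-1.35 ± 0.24). Lag3 had 0, 4 and 7 UMIs in CD4 T cells (-3.43 ± 0.38), Havcr2 0, 1 and 0 (-5.32 ± 0.75) and Cd160 0, 2 and 5 (-4.57 ± 0.40). Cd244a had 0 UMIs in CD4 T cells, a call lost without the day 7 library. Entpd1, encoding CD39, had 2, 1 and 3 UMIs in CD4 T cells (-1.59 ± 0.58), and its call was lost under DESeq2, several gate settings and without the day 7 or the day 14 library.

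With cells holding a Foxp3 UMI gated out, regulatory T cell genes were not uniformly higher or lower. Of 16 tested, 6 were higher and 2 were lower, with a median of 0.15, beside 7.11% and 13.6% of all genes. Whether the members include regulatory T cells whose Foxp3 transcripts were not captured was not tested. The 2 lower genes were Ikzf2 and Tnfrsf9. Tnfrsf9, encoding 4-1BB, stood at 105, 198 and 319 CPM in CD4 T cells, against 548, 268 and 229 CPM in CD8 T cells, and its call was lost in most alternatives, among them leaving out the day 3 or the day 7 library. The receptors of the common γ chain split evenly, with Il2rg and Il7r higher and Il2rb and Il21r lower among 7 tested. The calls of Il2rg, Il2rb and Il21r were lost under DESeq2 and without the day 7 library, that of Il2rb also without the day 3 library and those of Il2rg and Il21r without the day 14 library. Of 13 survival genes, 2 were higher (Mcl1 and Birc3) and 3 were lower (Bcl2l11, Bax and Bid), beside 7.11% and 13.6% of all genes. The call of each of these 5 was lost without the day 14 library, those of all but Birc3 also without the day 7 library and that of Bid whichever library was left out.

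Cell cycle genes were lower in CD4 T cells, and the size of this difference depended on the deepest cells. All 22 tested were lower, with a median log2 fold change of -1.38. Stmn1, a microtubule regulator of dividing cells, stood at 23.3, 151 and 199 CPM in CD4 T cells, against 446, 508 and 467 CPM in CD8 T cells (-1.93 ± 0.21). Top2a stood at 11.7, 163 and 110 CPM in CD4 T cells, against 273, 274 and 231 CPM in CD8 T cells (-1.39 ± 0.22). DESeq2 called 13 of the 22. There were 0, 1 and 3 members above 20000 UMIs, against 113, 134 and 110 CD8 T cells. Without such cells 6 of the 22 were lower, with at least 2 Cd4 UMIs 3 were, and Top2a lost its call in both. With every cell thinned to 1500 UMIs, 13 of 19 tested were lower. Of 16 glycolysis and hypoxia genes 6 were lower, with a median of -0.11, and the calls of Tpi1 and Gapdh, enzymes of glycolysis, were lost without cells above 20000 UMIs.

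Interferon response genes were higher in CD4 T cells. Of 16 type I interferon response genes tested, 13 were higher and 0 lower, with a median log2 fold change of 1.35. At an unadjusted p under 0.05 the lower count was also 0, and DESeq2 called 13 higher and 0 lower. Isg15, a ubiquitin-like antiviral protein, stood at 303, 127 and 72.1 CPM in CD4 T cells, against 52.3, 43.2 and 19.8 CPM in CD8 T cells (1.73 ± 0.24). Ifi27l2a stood at 1969, 1225 and 878 CPM in CD4 T cells, against 303, 760 and 442 CPM in CD8 T cells (1.20 ± 0.16). Slfn5 was also higher (2.69 ± 0.37). Without the day 7 library 6 of 16 were higher, Bst2 being among the calls lost, though its log2 fold change kept to 0.79 to 1.25 when a library was left out. The count was 8 of 15 without cells holding other types' markers and 5 of 11 after thinning, where Irf7 was among the calls lost.

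Targets of interferon-γ showed a like pattern. Of 17 tested, 12 were higher and 1, the myeloid and lymphoid factor Irf8, was lower, with a median of 1.19. Igtp, an interferon-induced GTPase, stood at 373, 251 and 167 CPM in CD4 T cells, against 88.3, 55.9 and 45.7 CPM in CD8 T cells (1.83 ± 0.21). Iigp1 and Gbp2 were higher by 2.55 ± 0.34 and 1.75 ± 0.22. Without the day 7 library 6 of the 17 were higher, with the calls of Irf1 and Irgm1 lost, and after thinning 6 of 13 were.

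Trbc2 separated the members themselves. This constant region gene of the receptor β chain (chr6:41546730-41548352) stood at 1678, 8749 and 2784 CPM in CD4 T cells at days 3, 7 and 14, against 5564, 9010 and 9178 CPM in CD8 T cells. The level in day 7 CD4 T cells was close to that in CD8 T cells, and it was lower on the other 2 days (-1.35 ± 0.11, a call lost without the block). Foxp3-positive T cells had 652, 745 and 770 CPM. Trbc1, the other constant region gene, stood at 1294, 1056 and 927 CPM in CD4 T cells, against 1176, 1250 and 939 CPM in CD8 T cells.

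By cell, the day 7 members fell into a high and a low Trbc2 range. Members with at least 5000 CPM of Trbc2 were 2 of 20 at day 3 (10%, 1.23 to 31.7), 31 of 53 at day 7 (58.5%, 44.1 to 71.9) and 14 of 94 at day 14 (14.9%, 8.39 to 23.7). In CD8 T cells they were 37.5%, 53.1% and 46.1%, and there was none among Foxp3-positive T cells. The median per cell was 1300, 10759 and 1883 CPM in CD4 T cells, against 2565, 7265 and 3293 CPM in CD8 T cells. The limit of 5000 CPM was set after the values were seen.

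**Figure D4:**
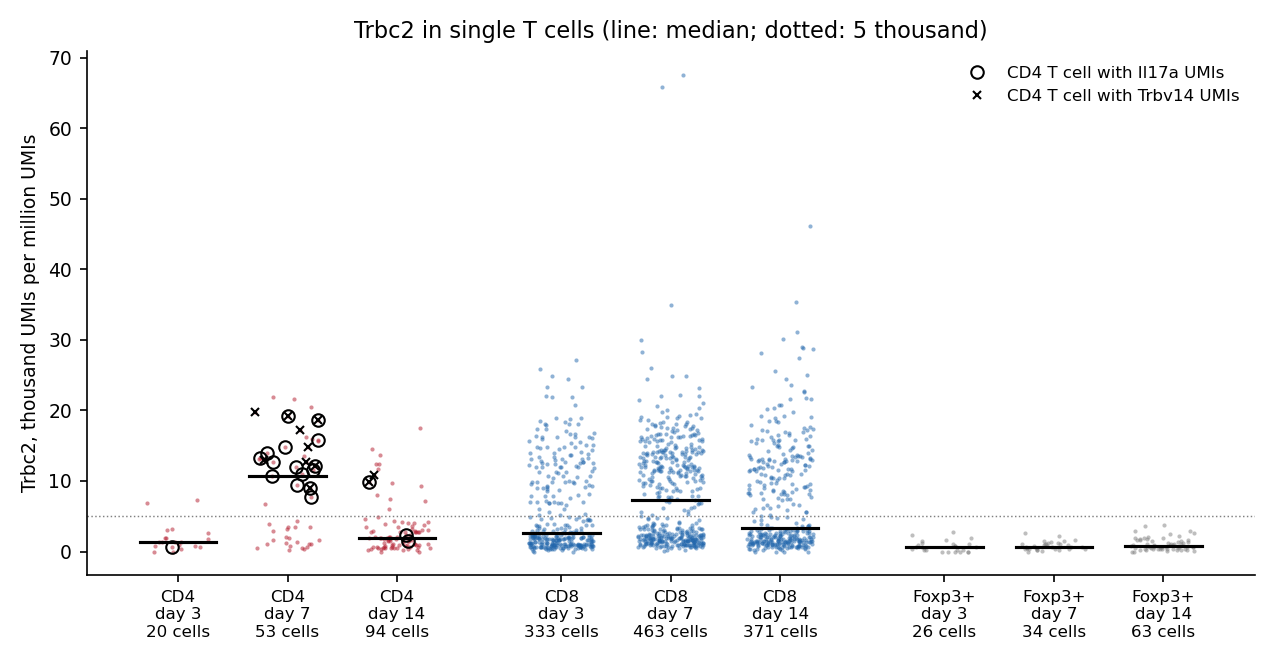
Trbc2 level of each cell (CPM, in units of 1000) in conventional CD4 T cells, CD8 T cells and Foxp3-positive T cells at days 3, 7 and 14, with the median as a bar and the limit of 5000 CPM as a dotted line. Circles mark CD4 T cells with Il17a and crosses those with Trbv14, and at day 7, 31 of 53 CD4 T cells lie at or above the limit.

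High Trbc2 went with the variable segment Trbv14 (chr6:41135145-41135616) in CD8 T cells. Trbv14 encodes the β-chain variable region of the Pmel-1 receptor, and the transferred cells were described as cytotoxic T cells. CD8 T cells with Trbv14 as their only variable segment had median Trbc2 levels of 12012, 13839 and 12662 CPM, against 1910, 2224 and 2174 CPM in those with another segment only. Among CD4 T cells there was 0 of 0 variable segment UMIs at day 3, 12 of 21 Trbv14 UMIs at day 7 (57.1%, 34.0 to 78.2) and 2 of 8 at day 14 (25%, 3.19 to 65.1). In CD8 T cells 70.2%, 83.4% and 86.4% of variable segment UMIs were Trbv14. The 12 UMIs at day 7 lay in 9 members, all with at least 50 Trbc2 UMIs. Whether these members are transferred cells without detected CD8 transcripts, host cells or doublets was not tested.

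The high Trbc2 members of day 7 also held most of the Il17a. Of the 28 members with at least 50 Trbc2 UMIs, 14 had an Il17a UMI, against 1 of the 25 with fewer. Ifng was seen in 6 of the 28 and 0 of the 25. The 28 had fewer UMIs of Areg (2 against 60), of Ikzf2 (2 against 22), of Tnfrsf9 (7 against 60), of Cd27 (6 against 32) and of Pdcd1 (5 against 18) than the 25. These are summed UMIs, and 1 of the 25 held 38 of the Areg UMIs, which were seen in 10 members of day 7. The 28 had 61 UMIs of Cd4, against 48 in the 25. Median totals were 6166.5 UMIs in the 28 and 5056 UMIs in the 25, and Tmem176b stood at 440 CPM in the 28 against 140 CPM in the 25.

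Genes within CD4 T cells were then set side by side by day. With 1 library per day there is no test, so a gene is called higher or lower here by size alone, at 1.5-fold or more with a counting interval that excludes 1 and at least 20 UMIs over both days. UMIs of 1 cell are not independent, so the number of members behind a value is given where it is small. Of 2982 genes measured at day 7 against day 3, 154 were higher (5.16%) and 167 lower (5.6%). Of 4954 at day 14 against day 7, 188 were higher (3.79%) and 216 lower (4.36%). Of 3980 at day 14 against day 3, 181 were higher (4.55%) and 233 lower (5.85%). The median log2 ratio of all genes was 0.07, 0.03 and 0.08 in these comparisons. By the same rule, CD8 T cells had 5.78% of genes higher and 7.53% lower at day 7 against day 3, 3.48% and 5.04% at day 14 against day 7, and 4.44% and 6.09% at day 14 against day 3.

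Naive and memory genes stood lower at both later days than at day 3. At day 7, 7 of 11 measured were lower than at day 3 and 0 higher, with a median log2 ratio of -0.93, and at day 14 also 7 of 11, with a median of -0.98. Lef1, a partner of Tcf7, stood at 256, 59.2 and 100.5 CPM at days 3, 7 and 14. Foxp1, which maintains quiescence, stood at 315, 97.6 and 91.0 CPM, and its day 14 level was 3.46-fold lower than at day 3 (2.07 to 5.65). Satb1 stood at 350, 183 and 142 CPM. Klf2 stood at 967, 435 and 533 CPM, 2.22-fold lower at day 7 than at day 3 (1.68 to 2.93), but its direction turned with at least 2 Cd4 UMIs, which leaves 4 cells at day 3. In CD8 T cells, genes of the same list were higher by size in 5 of 15 at day 7 and in 9 of 15 at day 14, against day 3, and lower in 0, beside 5.78% and 4.44% of all genes higher. The difference between the classes in this respect was not tested.

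Interferon targets were lower at day 14. Of 14 interferon-γ targets measured, 7 were lower than at day 7 and 0 higher, with a median log2 ratio of -0.57, and 8 were lower than at day 3, with a median of -1.18. Leaving out the richest cell of each gene kept 7 of 14 against day 7 and 6 of 12 against day 3. Socs1, a feedback inhibitor of cytokine signals, stood at 268, 225 and 102 CPM, and Cd274, encoding PD-L1, at 140, 109 and 58.8 CPM. Irf1 stood at 373, 355 and 163 CPM, 2.18-fold lower at day 14 than at day 7 (1.64 to 2.90). CD8 T cells had 9 of 17 of these genes lower at day 14 than at day 3, beside 6.09% of all genes. Of 10 type I response genes, 6 were lower at day 14 than at day 3, with a median of -1.43, but 3 of 8 without the richest cell of each gene. At day 3, Ifit1 came from 3 members and Isg15 from 7.

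Several Th17 genes and Cd40lg stood highest at day 7. Il17a was 11.8-fold higher at day 7 than at day 3 (4.97 to 36.6) and 4.26-fold lower at day 14 than at day 7 (3.31 to 5.52). Without the members with Trbv14 or high Trbc2, these Il17a differences were 3.46-fold and 1.67-fold. High Trbc2 is at least 50 UMIs here, not 5000 CPM, and 0, 28 and 4 members had it at days 3, 7 and 14. All 26 Il17a UMIs then left at day 7 lay in 1 member. Tmem176b was 3.18-fold lower at day 14 than at day 7 (2.27 to 4.49), and did not pass the size rule without those members. Of 8 Th17 genes measured, 4 were lower at day 14 than at day 7 (Il17a, Il17f, Tmem176a and Tmem176b), and 3 of 6 without the richest cell of each gene. All 21 Il17f UMIs of day 7 were in 1 member. At day 7 against day 3, Tmem176b was 2.15-fold higher, a direction that turned without the members with Trbv14 or high Trbc2. Of 7 Th17 genes, 4 were higher and 2, Stat3 and Batf, lower at day 7 than at day 3, and 1 of 6 was higher without those members. Cd40lg was 2.79-fold higher at day 7 than at day 3 (1.29 to 7.18) and 1.82-fold lower at day 14 than at day 7 (1.29 to 2.57). Without the members with Trbv14 or high Trbc2, Cd40lg was at 2.28-fold and 1.54-fold in the same directions, with counting intervals that included 1. Tnfrsf4, encoding OX40, stood at 198, 349 and 527 CPM, and Tnfsf11 at 210, 109 and 43.6 CPM, so these members of the TNF families ran in opposite directions. Without the members with Trbv14 or high Trbc2, Tnfrsf4 turned to a log2 ratio of -0.12 at day 14 against day 7.

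Cell cycle genes were low at day 3. Of 12 measured at day 7 against day 3, 10 were higher and 0 lower, and of 19 at day 14 against day 3, 11 were higher and 0 lower. Few cells carried them. At day 7, 40 of the 55 Top2a UMIs lay in 1 member, and without the richest cell of each gene 2 of 3 genes still measured were higher. Hmgb2, a chromatin protein of dividing cells, was broader, with 17 of 20, 51 of 53 and 82 of 94 members, and stood at 629, 1100 and 1256 CPM, but its log2 ratio at day 7 against day 3 turned to -0.045 with at least 2 Cd4 UMIs. No cell cycle gene passed the size rule in CD8 T cells in any of the 3 comparisons, where 22 were measured.

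**Figure D5:**
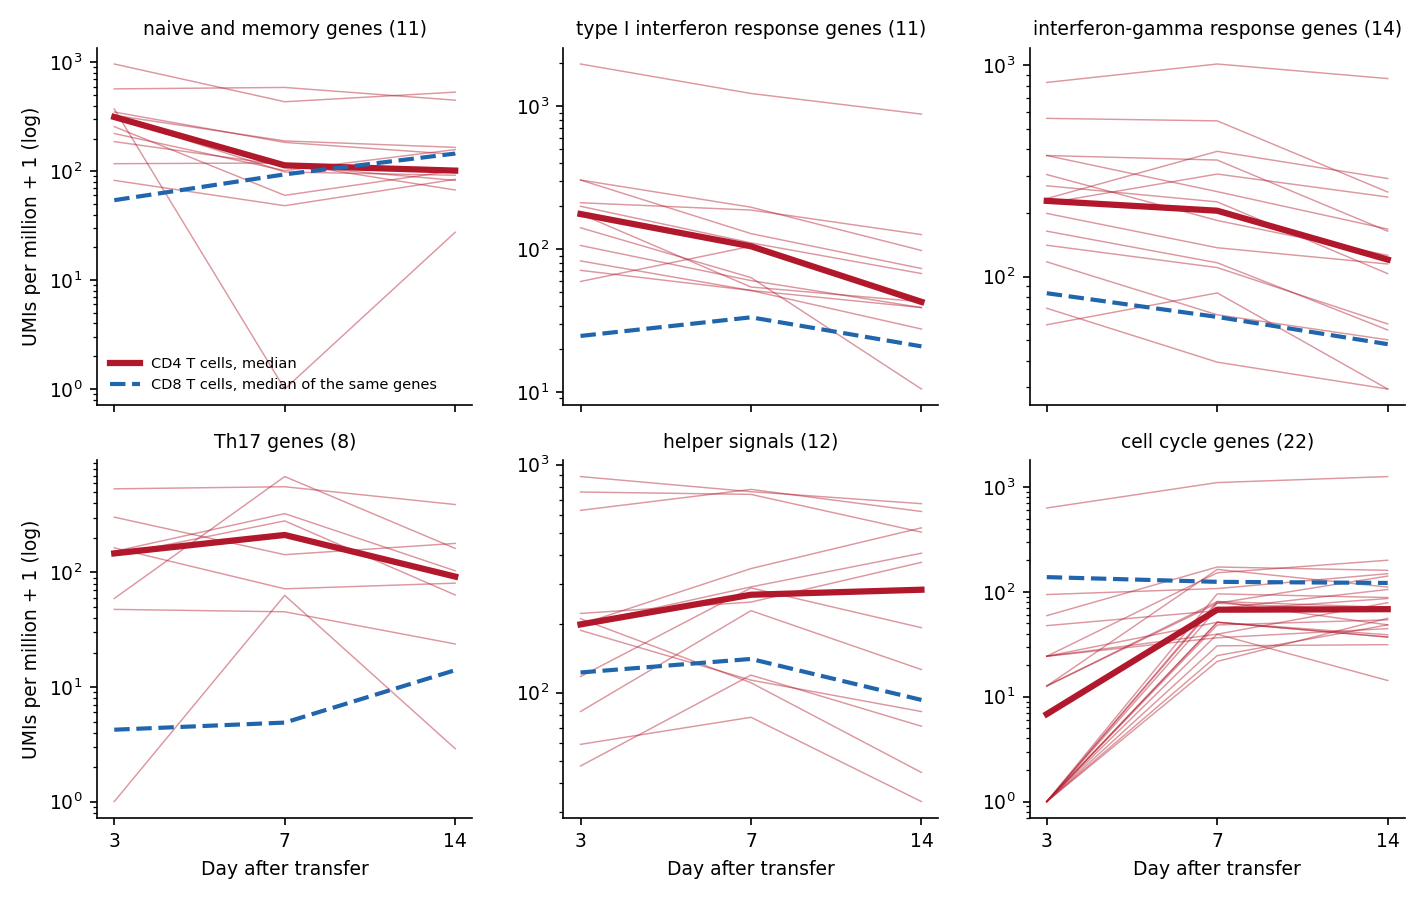
Level of each gene of 6 lists in conventional CD4 T cells at days 3, 7 and 14 (CPM with 1 added, log axis, thin lines), with the median of the list in CD4 T cells (thick red) and in CD8 T cells (dashed blue). The naive and memory genes are lower after day 3, the interferon-γ targets are lower at day 14, and the cell cycle genes are lowest at day 3.

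Other genes stood out by size. Trbc2 was 5.21-fold higher at day 7 than at day 3 (4.41 to 6.21) and 3.14-fold lower at day 14 than at day 7 (2.95 to 3.35). Furin, which matures many secreted proteins, was 3.90-fold higher at day 7 than at day 3 (2.27 to 7.25) and 2.43-fold lower at day 14 than at day 7 (1.95 to 3.03). Acsbg1, an acyl-CoA synthetase gene, was 6.80-fold lower at day 14 than at day 7 (3.48 to 14.5), with 9 members holding a UMI at day 14 and 20 at day 7. Higher at day 7 than at day 3 were also Tmem59, Lgals1, S100a6 and Top2a, and lower were Kdm6b, Atp11b, Vps37b, Foxp1, Socs3 and Klf2. The richest member of day 7 held 161 of the 574 UMIs for Lgals1 and 115 of the 627 for S100a6. At day 14 against day 7, Trib2, Hist1h1c, Hspa4, Etv3, Map2k3 and Ifi30 were higher, by 4.01-fold for Trib2 (1.89 to 9.79), with 32 of the 65 day 14 UMIs of Ifi30 and 23 of the 53 of Etv3 each in 1 member, and the receptor-induced genes Nr4a2, Atf3 and Rgs2 were lower. Against day 3, Hist1h1c, Dut, Stmn1, Emd, Ifitm2 and H2afz were higher at day 14, and Uhrf2, Vps37b, Foxp1, Samhd1, Slfn1 and Fosl2 were lower. The richest member of day 14 held 39 of the 105 UMIs for Stmn1, 43 of the 136 for Dut and 125 of the 560 for H2afz. Emd and Ifitm2 had 51 and 73 UMIs at day 14, against 0 and 1 at day 3, and with at least 2 Cd4 UMIs their log2 ratios turned to -0.59 and -0.26.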

How the data were processed

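CD45+ cells of B16F10 melanomas were profiled in 3 single-cell libraries, 1 for each of days 3, 7 and 14 after T cell transfer. The authors deposited raw UMI counts per gene and barcode in filtered matrices, for which the submitters' processing notes name Cell Ranger 4.0.0 and the mm10 build. Doublets were not called, and cells above 20000 UMIs were left out as an alternative. Cells were gated as described, UMIs were summed per library and class, and CD4 sums were compared with CD8 sums (edgeR 4.0.16, R 4.3.3, TMM, filterByExpr, library as block, Benjamini-Hochberg over all genes). The block pairs the 2 classes of 1 library, not labelled replicates. DESeq2 1.42.0 was an alternative. Code was tested on simulated data. Days were compared by size only, with exact intervals (Python 3.11.15). Genes named as largest had an adjusted p under 0.05, at least 100 UMIs, 1 direction in all 3 libraries and UMIs in at least 10 cells of the higher class, and the 10 largest each way were taken, leaving out receptor segments, ribosomal and mitochondrial genes, gate genes and markers of other cell types. By day, the 6 largest each way were taken, with 50 UMIs or more. Other genes come from fixed lists. Members, lists and tests were chosen with earlier results of these data known. Some genes of the lists are counted but not reported by name here.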

Additional observations from a re-analysis of the deposited data

Results flagged for a closer look

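Ccl9, a macrophage inflammatory chemokine gene, differed between the days in its direction between the classes. Its log2 ratio of CD4 over CD8 levels was -3.773 at day 7 and 1.291 at day 14. Of its 22 UMIs in CD4 T cells at day 14, 1 member held 16. With 1 library per day this difference between days was not tested.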

How the results depend on the processing

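The counts of genes between CD4 and CD8 T cells depended on depth and on the gate. Beside 675 higher and 1289 lower genes, separate fits gave 269 and 206 with at least 2 Cd4 UMIs, 449 and 384 without cells above 20000 UMIs, and 260 and 263 with every cell thinned to 1500 UMIs. The lower count was also 413 by DESeq2, 808 with at least 3000 UMIs per cell, 833 under 5% mitochondrial UMIs and 540 without cells holding other types' markers. Leaving out a library gave 265 to 954 higher and 378 to 967 lower genes. Without the library block, which is the pairing of the 2 classes, there were 650 and 1143. With at least 2 Cd4 UMIs the log2 ratio of the CD4 share was 3.03 at day 7 and 3.40 at day 14 against day 3, and that of CD4 over CD8 cells 2.48 and 3.304.

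Counts by day moved as well. At day 7 against day 3, there were 154 higher genes, but 40 with at least 2 Cd4 UMIs, 96 under 5% mitochondrial UMIs, 93 without members with Trbv14 or high Trbc2 and 93 with 50 UMIs required over both days. Lower genes were 167, but 103 with at least 2 Cd4 UMIs, 81 without other types' markers, 66 without the Trbv14 or high Trbc2 members, 77 without the richest cell of each gene and 83 with 50 UMIs. At day 14 against day 7, higher genes were 121 without other types' markers and 119 with 50 UMIs, and lower genes 132 with 50 UMIs. At day 14 against day 3, higher genes were 44 with 2 Cd4 UMIs and 98 under 5% mitochondrial UMIs. Lower genes were 142 with 2 Cd4 UMIs, 121 without other types' markers, 103 without the richest cell and 135 with 50 UMIs.

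Over the 136 genes named between the classes, 2052 gene and setting pairs kept their direction and side of the threshold, 193 lost the call in 53 genes, 7 gained it in 3 genes and 10 reversed in 4 genes. Of the values by day, 734 moved by less than their counting interval, 84 by more and 9 reversed. Hspa1a had log2 fold changes of -0.28 by DESeq2, -0.89 with 2 Cd4 UMIs, -0.58 under 5% mitochondrial UMIs and -1.39 to 1.46 when a library was left out, and Hspa1b -0.48 with 2 Cd4 UMIs and -0.53 to 1.10 when a library was left out, both lowest without the day 14 library. Igfbp4 stood at -7.53 with 2 Cd4 UMIs. Tnfrsf9 stood at 0.030 without cells above 20000 UMIs and 0.22 thinned, and at -1.34 to 0.022 when a library was left out. With 2 Cd4 UMIs, the log2 ratio of Klf2 at day 7 against day 3 was 0.089, that of Ctla4 -0.49 and that of Hmgb2 -0.045, and at day 14 against day 3 that of Emd was -0.59 and that of Ifitm2 -0.26. Without other types' markers, Isg15 stood at 0.084 at day 14 against day 7 and Ifi27l2a at 0.24 at day 14 against day 3. Without the Trbv14 or high Trbc2 members, Tmem176b stood at -0.12 at day 7 against day 3 and Tnfrsf4 at -0.12 at day 14 against day 7. The causes were not tested. The settings without MHC class II high cells of both classes and without the Trbv14 or high Trbc2 members were added after seeing the data.

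The day 3 library held the fewest members, 20 with 85810 UMIs, and leaving 2 libraries in a fit assumes that their spread is shared.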
